A study of Mus musculus with 9 samples.

Results

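The genes of the respiratory chain were followed across 3 FACS-sorted subsets of mouse pancreatic islet cells, with those carried by the mitochondrial genome kept apart from those carried by the nuclear chromosomes. Members were taken by gene symbol among the protein-coding genes of the mouse annotation: the mitochondrial Nd, Co, Cytb and Atp genes, and the nuclear Nduf, Sdh, Uqcr, Cox4 to Cox8 and Atp5 families. The symbol rule used no measured value, but the members were chosen with earlier results of these data known. It gave 107 of 55536 annotated genes (22028 of them protein-coding), of which 13 are mitochondrial and 94 nuclear. All 13 mitochondrial members and 85 of the 94 nuclear members had enough counts to be tested, as did 15896 genes in all.

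Islets came from C57B/L6 mice aged 12 weeks, were picked by hand, kept overnight in RPMI medium with serum, dispersed and sorted with antibodies against the surface proteins CD24 and CD71, the latter being the transferrin receptor. The alpha-enriched subset was CD24low CD71-, the beta-enriched subset CD24low CD71+ and the delta-enriched subset CD24high, with 3 libraries each. Neither treatment nor genotype differed between the groups, and all came from cultured islets. Libraries were strand-specific, made with random primers and depleted of ribosomal RNA, and were read as pairs of 75 bases. Nothing in the labels says that the 3 libraries of a subset came from separate animals, so p-values measure only the spread between these samples, which may be technical.

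The respiratory chain sits in the inner mitochondrial membrane. Complexes I to IV pass electrons from NADH and succinate to oxygen and, except for complex II, pump protons, and complex V, the ATP synthase, uses the returning protons to make ATP. Complexes I, III, IV and V are built from subunits encoded in both genomes, whereas complex II is wholly nuclear-encoded. In beta cells, ATP made from glucose closes potassium channels in the plasma membrane and so couples respiration to insulin release.

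Libraries held 5663141 to 9529920 expected counts, with 184530 to 486618 on the mitochondrial members and 18509 to 27694 on the nuclear ones. The hormone genes were each highest in the subset of their label. Gcg lay at 78112 to 96574 CPM (counts scaled to library size) in alpha, 300 to 550 in beta and 1930 to 6003 in delta libraries. Ins2 lay at 2027 to 2772 CPM in alpha, 21226 to 28401 in beta and 65.3 to 390 in delta libraries. Sst lay at 18.9 to 73.4 CPM in alpha, 1.03 to 2.31 in beta and 14396 to 20737 in delta libraries. Hormone counts outside the labelled subset were thus present, and their part in the differences was not tested. Summed acinar markers reached 3055 CPM in delta replicate 3 and 578 CPM in alpha replicate 1, against 27.0 to 76.4 CPM in the beta libraries. Mesenchymal sums lay at 10.1 to 42.7 CPM in alpha libraries and at most 2.31 CPM elsewhere. Schwann sums lay at 11.1 to 15.9 CPM in alpha, 5.94 to 11.3 in beta and 14.3 to 28.7 in delta libraries. Endothelial, immune and erythroid sums stayed at or under 3.14 CPM. Beta replicate 2 stood apart, with 34.4% of its counts on CT010467.1 (3.15 to 5.37% elsewhere) and 52.9% on protein-coding genes (79.0 to 82.2% elsewhere). Results that rest on it are therefore also given without it. In these bulk samples, fewer cells of a type and less RNA per cell cannot be told apart.

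The mitochondrial genes have near-identical stretches in the nuclear genome, and the deposited counts divided reads between them. The extreme case was mt-Co2, which encodes subunit 2 of cytochrome c oxidase (complex IV) at chrM:7013-7696 on the plus strand of GRCm38. Gm28661, annotated at chr1:24614885-24615565 on the minus strand, matches 681 of its 684 bases with 100% identity. A window of 1 read length is shown for the gene and for 2 nuclear copies, at the place where the copy on chromosome 2, Gm13341, differs most. Capitals mark bases that differ from mt-Co2. The windows are chrM:7460-7534 on the plus strand, chr1:24615044-24615118 on the minus strand and chr2:22587453-22587527 on the minus strand, all on GRCm38.
mt-Co2: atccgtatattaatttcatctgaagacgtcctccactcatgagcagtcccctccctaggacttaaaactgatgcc
Gm28661: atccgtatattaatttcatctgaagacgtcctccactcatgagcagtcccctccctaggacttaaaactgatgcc
Gm13341: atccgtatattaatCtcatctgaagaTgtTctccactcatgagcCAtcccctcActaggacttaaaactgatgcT
The first and second windows are the same in all 75 bases, so no read inside them can be placed by its sequence, whereas the chromosome 2 copy differs at 7 positions. Gm28661 held 95.3 to 99.5% of the counts of the pair in every library, and Gm13341 held 8.76 to 22.9 counts.

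In the alpha-enriched libraries mt-Co2 was listed with 1614, 160 and 305 counts and Gm28661 with 42747, 33060 and 28183. In the beta-enriched libraries the pair held 1799, 940 and 1055 counts on mt-Co2 against 36815, 29663 and 22302 on the copy. The delta-enriched libraries held 483, 638 and 310 against 28011, 17007 and 22929. Counts of mt-Co2 thus lay far apart among the alpha libraries, while the sum of the pair lay closer together. The second large split was at mt-Atp6, which encodes the a subunit of the ATP synthase at chrM:7927-8607. Its chromosome 1 copy Gm10925 (chr1:24613974-24614651, 678 bases at 100% identity) held 33.8, 3.12 and 11.5% of the pair's counts in the alpha libraries. It held 7.87, 11.5 and 0% in the beta libraries, and 36.4, 44.1 and 31.4% in the delta libraries. The share on the copy was therefore largest in the delta libraries and in alpha replicate 1. Among the other mitochondrial members with a copy, mt-Co3 lost at most 9.39% of its counts to Gm28437, mt-Nd3 at most 5.02% to Gm28438, mt-Nd4 at most 4.54% to Gm28439 and mt-Co1 at most 0.668%. Values of mt-Co2 and mt-Atp6 are given below both as deposited and with the copies' counts added, the latter an alternative chosen after seeing the data.

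**Figure D1:**
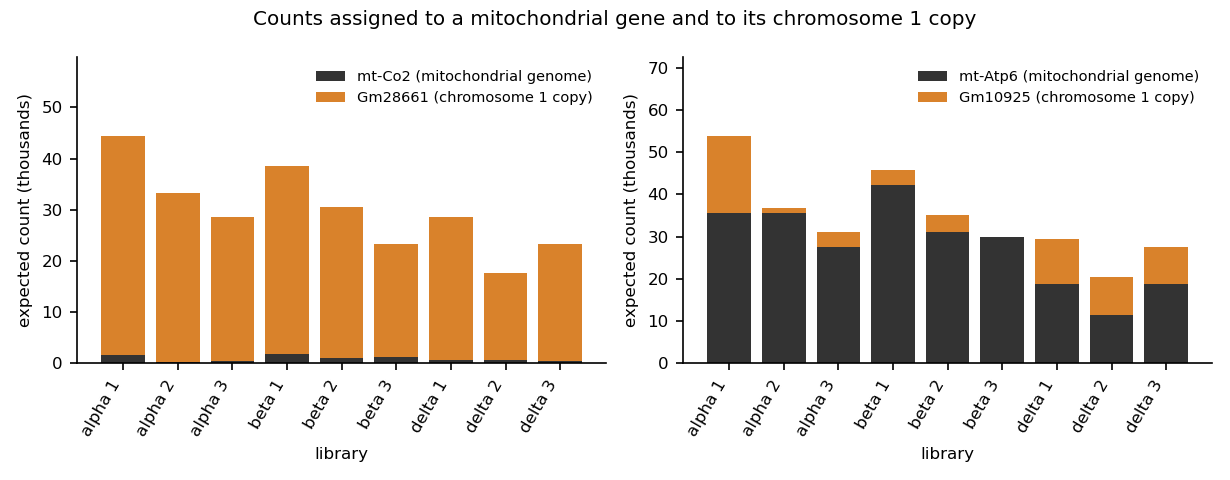
Expected counts (linear axis from 0) of mt-Co2 with its chromosome 1 copy Gm28661 and of mt-Atp6 with its copy Gm10925, stacked, 1 bar per library. Nearly all of the mt-Co2 pair lies on the copy in every library, whereas the copy's part of the mt-Atp6 pair runs from 0 to 44.1%.

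Messages of the 13 mitochondrial genes took a larger share of the protein-coding counts in beta- and alpha-enriched than in delta-enriched libraries, while the summed share of the nuclear members in the counts was nearly level. In the alpha libraries the mitochondrial share was 6.69, 5.68 and 5.57% (5.98% ± 0.616, SD, n = 3). It was 7.52, 6.95 and 7.01% in the beta libraries (7.16% ± 0.315, n = 3) and 4.995, 4.04 and 4.32% in the delta libraries (4.45% ± 0.490, n = 3). The 3 subsets did not overlap, though alpha replicate 1 and beta replicate 2 lay close together (6.69 and 6.95%), and without beta replicate 2 the beta mean was 7.26%. With the copies added the means were 6.65% ± 0.769, 7.74% ± 0.366 and 5.07% ± 0.558, and alpha replicate 1 (7.54%) lay above the lowest beta library (7.46%), so that alpha and beta overlapped. As a share of all counts beta replicate 2 (3.68%) lay below every alpha library and below delta replicate 1 (3.95%). The 94 nuclear members together held 0.381% ± 0.0221 of the protein-coding counts in the alpha libraries, 0.380% ± 0.0167 in the beta libraries and 0.406% ± 0.0120 in the delta libraries. Alpha and beta libraries overlapped in this nuclear share. In TPM the nuclear members held 1.03% ± 0.0547 of the protein-coding sum in alpha, 0.948% ± 0.0379 in beta and 1.196% ± 0.0165 in delta libraries, and all delta libraries lay above the rest. Per unit of transcript length, the ratio of summed mitochondrial to summed nuclear TPM (transcript abundance scaled for length) was 17.3, 13.6 and 16.01 in the alpha libraries. It was 20.5, 17.6 and 18.5 in the beta libraries and 11.6, 9.99 and 10.9 in the delta libraries. This ratio carries the difference in the nuclear share of TPM as well as that in the mitochondrial share. All beta ratios lay above all alpha ratios and all alpha ratios above all delta ratios. The ratio uses TPM as deposited, without the copies, so mt-Co2 enters at a mean TPM of only 119. It also includes mt-Atp8 at a mean TPM of 7807, a value that rests on an effective length of 24.7 bases and is uncertain. These shares are sums over members and carry no test.

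**Figure D2:**
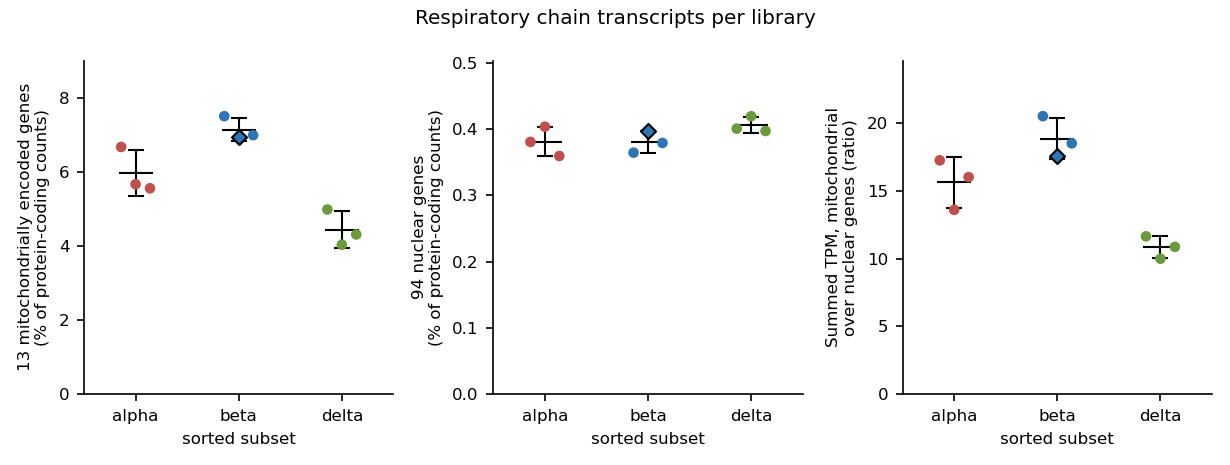
Mitochondrial members (% of protein-coding counts), nuclear members (% of protein-coding counts) and the ratio of their summed TPM, 1 point per library, with the mean ± SD of each subset and beta replicate 2 as a black-edged diamond. The mitochondrial share runs from 4.04 to 7.52% and separates by subset, whereas the nuclear share stays between 0.359 and 0.419%.

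Tested gene by gene with edgeR, 11 of the 13 mitochondrial genes were higher in beta- than in delta-enriched libraries and none was lower, where 30.6% of all tested genes were called in either direction and 15.4% were higher in beta. Likewise 11 of 13 were higher in alpha- than in delta-enriched libraries and none lower, against 24.3% of all tested genes called and 11.0% higher in alpha. Between beta and alpha 7 of 13 were higher in beta and none lower, against 26.6% called and 14.8% higher in beta. The median log2 differences of the 13 genes were 0.80 for beta minus delta, 0.61 for alpha minus delta and 0.32 for beta minus alpha, beside -0.02, -0.01 and -0.02 over all tested genes. The 3 comparisons share their libraries, so they are set side by side and not counted as separate support.

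Of the 7 mitochondrial subunits of complex I, all were higher in beta- and in alpha-enriched than in delta-enriched libraries. mt-Nd5, a proton-pumping subunit of the membrane arm, lay at 6859, 5326 and 5431 CPM in alpha, 7967, 7263 and 7339 CPM in beta and 3856, 3022 and 3459 CPM in delta libraries. The 3 subsets did not overlap at mt-Nd5. Its log2 difference was 1.13 ± 0.11 (SE, adjusted p = 4.41e-07) for beta minus delta, 0.77 ± 0.11 (adjusted p = 4.58e-05) for alpha minus delta and 0.36 ± 0.11 (adjusted p = 0.022) for beta minus alpha. mt-Nd2, another membrane-arm subunit, had 4082, 3320 and 3355 CPM in alpha, 4496, 4722 and 4211 CPM in beta and 2366, 1759 and 2059 CPM in delta libraries. Here all beta libraries lay above all alpha libraries, and all alpha libraries above all delta libraries. The beta minus delta difference of mt-Nd2 was 1.12 ± 0.11 (adjusted p = 5.06e-07). mt-Nd4 had 1.03 ± 0.12 (adjusted p = 4.87e-06) for beta minus delta and 0.67 ± 0.12 (adjusted p = 0.000535) for alpha minus delta. mt-Nd6, the single member read from the minus strand (chrM:13552-14070), had 1353, 1051 and 1057 CPM in alpha, 1619, 1559 and 1361 CPM in beta and 910, 655 and 697 CPM in delta libraries. Its differences, 1.004 ± 0.13 (adjusted p = 1.97e-05) for beta minus delta and 0.61 ± 0.13 (adjusted p = 0.00229) for alpha minus delta, lay within the range of the plus-strand genes. The alpha minus delta calls of mt-Nd4 and mt-Nd6 were lost on TPM rescaled to nuclear protein-coding genes.

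mt-Nd1 and mt-Nd3 were higher in beta than in delta like the others but did not differ detectably between beta and alpha. mt-Nd1 lay at 5096, 4178 and 3906 CPM in alpha, 4602, 4851 and 4221 CPM in beta and 2825, 2670 and 2621 CPM in delta libraries. Alpha and beta libraries interleaved, with a beta minus alpha difference of 0.05 ± 0.10 (adjusted p = 0.767). mt-Nd3 had 786, 548 and 526 CPM in alpha, 698, 556 and 558 CPM in beta and 388, 322 and 333 CPM in delta libraries, and its beta minus alpha difference was -0.04 ± 0.14 (adjusted p = 0.894). mt-Nd4l, the smallest complex I subunit of the mitochondrial genome, had the weakest calls of the 7, at 0.70 ± 0.14 (adjusted p = 0.00137) for beta minus delta and 0.43 ± 0.14 (adjusted p = 0.0396) for alpha minus delta. The latter was lost without any of alpha replicates 1 and 2, beta replicate 2 or the 3 delta libraries, with log2 values of 0.34 to 0.47. It was also lost on the 3 TPM scales (log2 TPM with either pseudocount, and TPM rescaled to nuclear protein-coding genes).

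mt-Cytb, the catalytic core of complex III and its sole mitochondrial subunit, lay at 4758, 3655 and 3682 CPM in alpha, 5254, 5226 and 4641 CPM in beta and 3213, 2774 and 2889 CPM in delta libraries. Its differences were 0.77 ± 0.11 (adjusted p = 2.45e-05) for beta minus delta and 0.45 ± 0.11 (adjusted p = 0.00486) for alpha minus delta. The second was lost on the 3 TPM scales. mt-Co1, the oxygen-reducing subunit of complex IV, had 13226, 10520 and 10041 CPM in alpha, 14839, 14851 and 14583 CPM in beta and 9860, 7752 and 8009 CPM in delta libraries. The beta libraries were tight and above all others, and alpha and delta libraries came close, 10041 against 9860 CPM. The mt-Co1 differences were 0.79 ± 0.11 (adjusted p = 3.25e-05) for beta minus delta and 0.40 ± 0.11 (adjusted p = 0.0145) for alpha minus delta. The second was lost without alpha replicate 1, delta replicate 2 or delta replicate 3 (0.28 to 0.36), and on the 3 TPM scales. mt-Co3, the third mitochondrial subunit of complex IV, had 0.75 ± 0.14 (adjusted p = 0.000571) and 0.60 ± 0.14 (adjusted p = 0.00461). Both mt-Co3 calls were lost on TPM rescaled to nuclear protein-coding genes.

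mt-Co2 as deposited had 184, 20.1 and 43.0 CPM in alpha, 231, 161 and 174 CPM in beta and 66.0, 96.5 and 39.8 CPM in delta libraries, with no call and standard errors of 0.80 to 0.82. Its beta minus delta value passed the threshold without alpha replicate 1 and with only the 2 subsets fitted, and over all settings it ran from 0.46 to 1.84 with an adjusted p of 0.00888 to 0.507. Its beta minus alpha value also passed without alpha replicate 1, at 2.58 (adjusted p = 0.0171), where all settings ran from -0.01 to 2.58 with an adjusted p of up to 0.972. With the chromosome 1 copy added it had 5054, 4183 and 4020 CPM in alpha, 4957, 5245 and 3855 CPM in beta and 3891, 2668 and 2987 CPM in delta libraries. On that scale 1 beta library lay just below the highest delta library, and the differences were 0.56 ± 0.15 (adjusted p = 0.00888) for beta minus delta and 0.47 ± 0.15 (adjusted p = 0.0285) for alpha minus delta. Without beta replicate 2 the former was 0.46 (adjusted p = 0.0599). Per kilobase, mt-Co2 with its copies stood at 8728 CPM, next to 8678 CPM for mt-Co1.

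The complex V genes mt-Atp8 and mt-Atp6 share one message, and their reading frames overlap by 43 bases at chrM:7927-7969 on the plus strand. In this stretch the first capitals mark the start codon of mt-Atp6 and the last the stop codon of mt-Atp8.
overlap of mt-Atp8 and mt-Atp6: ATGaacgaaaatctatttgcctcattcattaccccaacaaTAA
mt-Atp6 as deposited lay at 4058, 4483 and 3866 CPM in alpha, 5422, 5312 and 4946 CPM in beta and 2554, 1726 and 2415 CPM in delta libraries. It had the largest called beta minus delta difference of the 13 genes, 1.23 ± 0.12 (adjusted p = 6.24e-07), and 0.89 ± 0.12 (adjusted p = 3.03e-05) for alpha minus delta. With Gm10925 added these became 0.66 ± 0.13 (adjusted p = 0.00091) and 0.51 ± 0.13 (adjusted p = 0.00896), the copy having its largest mean share in the delta libraries. The beta minus alpha difference of mt-Atp6 went from 0.34 ± 0.12 (adjusted p = 0.0472) to 0.15 ± 0.13 (adjusted p = 0.455), and was not called with the copy added. mt-Atp8 had 499, 390 and 288 CPM in alpha, 521, 476 and 261 CPM in beta and 397, 291 and 273 CPM in delta libraries, with overlapping subsets and no call. Its beta minus delta value was called on TPM with either pseudocount, and over all settings it ran from 0.17 to 0.85 with an adjusted p of 0.0239 to 0.825. Counting the copies, 12 of 13 mitochondrial genes were higher in beta than in delta and 12 of 13 in alpha than in delta, mt-Atp8 being the exception in both.

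**Figure D3:**
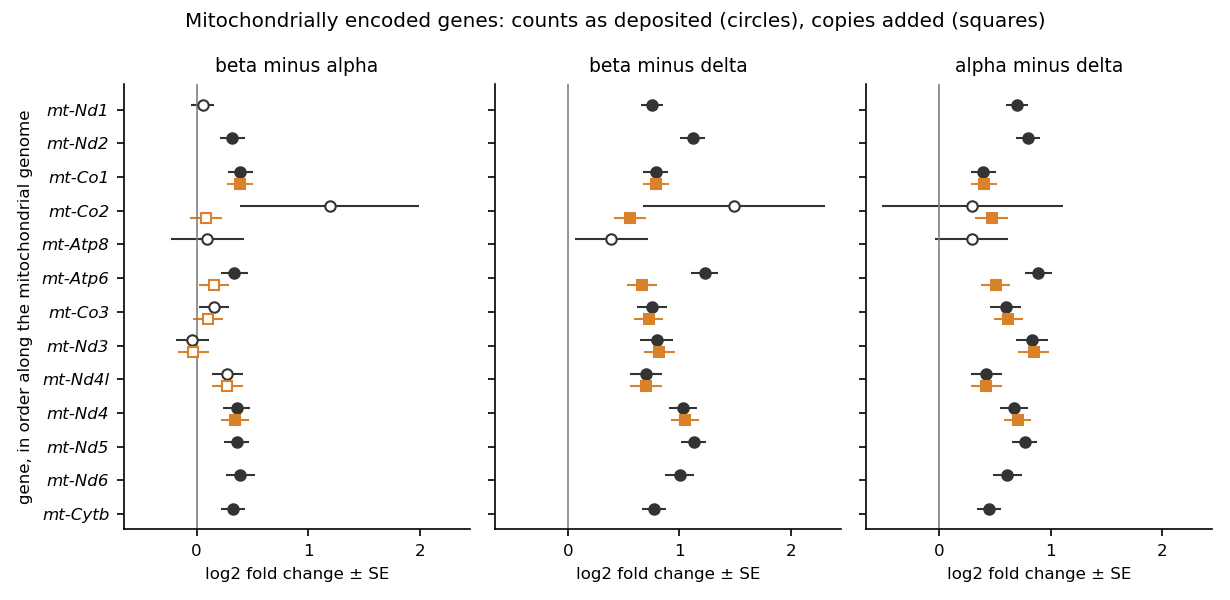
Log2 differences (± SE) of the 13 mitochondrial genes in the 3 comparisons, as deposited (circles) and with the nuclear copies' counts added (squares), filled where the adjusted p is under 0.05. mt-Co2 moves from 1.49 to 0.56 and mt-Atp6 from 1.23 to 0.66 for beta minus delta.

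The calls against delta and those between beta and alpha differed in how much they leaned on single libraries. None of the 11 beta minus delta calls was lost on leaving out any 1 of the 9 libraries, and without beta replicate 2 the difference of mt-Nd5 was 1.14 (adjusted p = 6.5e-06). The 7 beta minus alpha calls (mt-Nd2, mt-Nd4, mt-Nd5, mt-Nd6, mt-Cytb, mt-Co1 and mt-Atp6) fell to 0 without alpha replicate 2, alpha replicate 3 or beta replicate 2, to 1 without beta replicate 1 and to 3 without delta replicate 3. The median of the 13 genes stayed between 0.27 and 0.32 in those fits, and was 0.42 without alpha replicate 1. In that fit mt-Atp6 lost its call, the other named genes kept theirs and mt-Co2 was called. Without beta replicate 3, mt-Nd2, mt-Nd4 and mt-Atp6 lost their calls and mt-Nd4l was called. Without beta replicate 2, mt-Co1 had 0.37 (adjusted p = 0.0631) and mt-Nd5 0.37 (adjusted p = 0.0583) for beta minus alpha. With the copies added 6 genes were called for beta minus alpha, and 0 when beta replicate 2 was also left out. Markers of other cell types also differed between the subsets. The summed acinar markers lay at 207 to 3055 CPM in delta, 60.2 to 578 in alpha and 27.0 to 76.4 in beta libraries, and summed duct markers at 160 to 304, 575 to 765 and 341 to 386 CPM. Ppy, the hormone of PP cells, lay at 1476 to 2145 CPM in delta, 1656 to 2409 in alpha and 30.7 to 60.5 in beta libraries, and the part of these cell types in the differences was not tested.

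Among the mitochondrial genes levels per unit of length ran from a mean TPM of 119 for mt-Co2 as deposited to 7807 for mt-Atp8, with a median of 2618. The effective length behind the mt-Atp8 value was 24.7 bases, which leaves its TPM uncertain. The tested nuclear members had a median TPM of 22.3. By complex the lowest and highest mean TPM were 6.26 (Ndufa13) and 77.1 (Ndufc1) in complex I, 9.77 (Sdhc) and 36.7 (Sdha) in complex II, and 16.6 (Uqcrc1) and 65.6 (Uqcrb) in complex III. In complex IV they were 15.6 (Cox5a) and 113 (Cox6c), in complex V 18.8 (Atp5d) and 99.4 (Atp5b), and among the assembly factors 2.65 (Ndufaf1) and 6.23 (Ndufaf4).

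Most nuclear members did not pass the test in any comparison. Those that did lay in both directions, but nearly all of the beta minus delta calls were higher in beta. Of the 85 tested, 4 were higher and 2 lower in beta than in alpha. That is 7.06% against 26.6% of all tested genes (14.8% higher and 11.9% lower). Between beta and delta 14 were higher and 1 lower, 17.6% against 30.6% (15.4% higher and 15.3% lower). Between alpha and delta 4 nuclear members were higher and 2 lower, 7.06% against 24.3% (11.0% higher and 13.3% lower). Their median log2 differences were -0.01, 0.03 and 0.10. The subsets' libraries did not overlap at 23, 23 and 15 of the 85 genes, where this held for 45.5, 42.6 and 36.1% of all tested genes. Without beta replicate 2, 3 nuclear members were called between beta and alpha (Cox7a2l, Sdha and Atp5e), 7 between beta and delta and 3 between alpha and delta. On TPM rescaled to the nuclear protein-coding genes, the median of all genes lay at -0.34 for beta minus delta and -0.24 for alpha minus delta, and most called genes were lower (891 higher and 3850 lower for beta minus delta, 722 and 2802 for alpha minus delta). On that scale 2 nuclear members were higher and 17 lower in beta than in delta, and 0 were higher and 8 lower in alpha than in delta, with nuclear medians of -0.26 and -0.16. The excess of higher over lower nuclear members against delta therefore held on the main count-based scaling and not on that one. With upper-quartile factors the split for beta minus alpha was 2 higher and 4 lower. Sdha (-0.16), Atp5f1 (-0.05) and Ndufs1 (-0.12) lay below 0 but above the median of all genes there for beta minus delta, as did Atp5b for alpha minus delta (-0.14), whereas Atp5b for beta minus delta (-0.38) lay below that median. Exons of 32 of the 94 members overlap another gene, among the called ones Atp5a1, Atp5f1, Cox5a, Ndufs1, Ndufs6 and Ndufb9, and no source used here gives the strand setting of the counting.

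**Figure D4:**
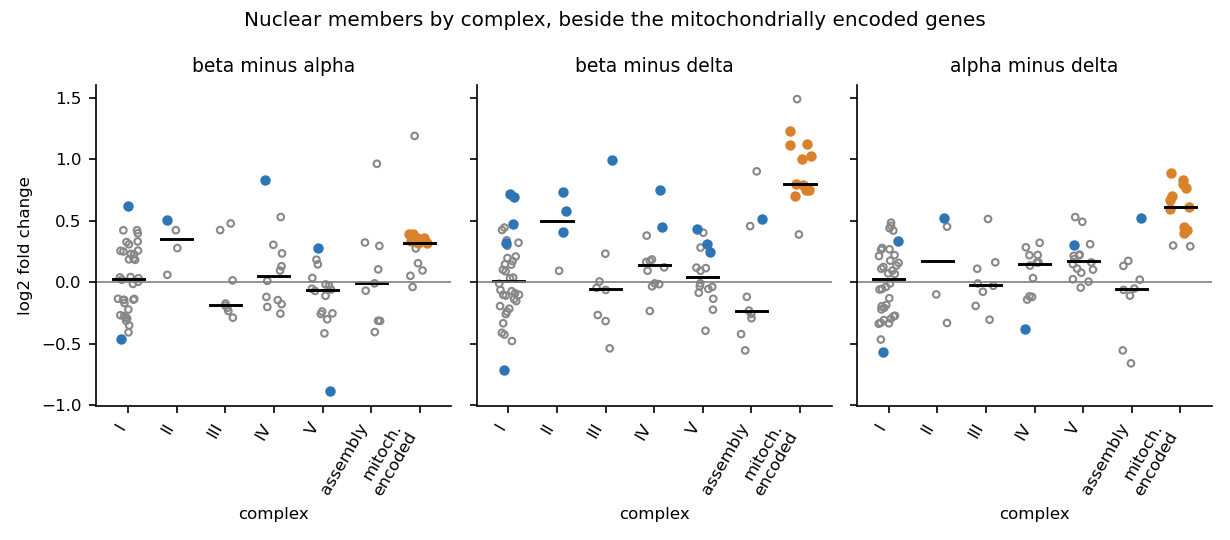
Log2 differences of the tested nuclear members by complex, with the mitochondrial members at the right, in the 3 comparisons. Points are genes, filled where the adjusted p is under 0.05, and lines are medians. The medians of complexes I, III, IV and V lie between -0.18 and 0.18, while the mitochondrial median for beta minus delta is 0.80.

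Complex I had 36 tested nuclear subunits, of which 1 was higher and 1 lower in beta than in alpha, 4 higher and 1 lower in beta than in delta, and 1 higher and 1 lower in alpha than in delta. Ndufb9, a membrane-arm subunit, lay at 17.9, 19.8 and 13.1 CPM in alpha, 21.3, 29.0 and 28.1 CPM in beta and 15.02, 16.9 and 15.7 CPM in delta libraries. All beta libraries were above all others, with 0.62 ± 0.20 (adjusted p = 0.0275) over alpha and 0.71 ± 0.20 (adjusted p = 0.0109) over delta. The first was lost without alpha replicate 1, alpha replicate 3, beta replicate 2 or beta replicate 3 (0.47 to 0.66), and the second without beta replicate 2 (0.63). The first was also lost on both log2 TPM scales, and the second on rescaled TPM. Ndufv3, an accessory subunit next to the NADH-oxidising module, had 27.5, 33.8 and 25.6 CPM in beta against 15.2, 16.2 and 22.2 CPM in delta libraries. Its difference of 0.69 ± 0.19 (adjusted p = 0.0089) was lost without beta replicate 2 (0.56).

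Ndufs4, an accessory subunit whose loss causes complex I deficiency, ran the other way, with 45.1, 36.8 and 36.8 CPM in alpha, 30.6, 29.3 and 26.6 CPM in beta and 33.6, 28.9 and 36.4 CPM in delta libraries. The beta libraries were all below the alpha ones, at -0.46 ± 0.15 (adjusted p = 0.0337), a call lost without alpha replicate 1 or any 1 beta library (-0.50 to -0.36). Ndufs6 was lower in beta than in delta at -0.71 ± 0.23 (adjusted p = 0.025), lost without beta replicate 1, beta replicate 3 or delta replicate 1 (-0.69 to -0.55). Ndufa12 was lower in alpha than in delta at -0.57 ± 0.19 (adjusted p = 0.0329), lost without alpha replicate 1, alpha replicate 3 or delta replicate 2 (-0.53 to -0.35). On both log2 TPM scales the calls of Ndufs4, Ndufs6 and Ndufa12 were lost, and that of Ndufs4 also on rescaled TPM.

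Ndufs1, which carries iron-sulphur clusters of the electron path, had 73.7, 68.6 and 80.8 CPM in alpha, 77.6, 77.1 and 66.3 CPM in beta and 53.7, 60.9 and 62.6 CPM in delta libraries. All delta libraries lay below the rest, by 0.32 (adjusted p = 0.0485) against beta and 0.33 (adjusted p = 0.0474) against alpha. Each of these was lost without any of 8 of the 9 libraries, with values of 0.26 to 0.37 and 0.27 to 0.38. Ndufa10, at 36.7 ± 3.32 CPM in beta and 26.4 ± 4.34 CPM in delta libraries, was the remaining call, 0.47 ± 0.16 (adjusted p = 0.0339) for beta minus delta, lost without beta replicates 2 or 3 or delta replicates 1 or 2 (0.38 to 0.45). Of the 9 tested members grouped as assembly factors, which are the Ndufaf genes of complex I assembly and Atp5s, a coupling factor of the ATP synthase, Ndufaf4 was the single one called. It lay at 31.8, 31.2 and 27.7 CPM in alpha, 35.3, 28.6 and 26.1 CPM in beta and 20.6, 24.3 and 18.2 CPM in delta libraries. The delta libraries were the lowest 3, with 0.51 ± 0.17 (adjusted p = 0.0314) for beta and 0.52 ± 0.17 (adjusted p = 0.0343) for alpha, each lost without delta replicate 3 and 2 other libraries (0.38 to 0.54). The calls of Ndufs1, Ndufa10 and Ndufaf4 were also lost on the 3 TPM scales.

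In complex II, succinate dehydrogenase, 3 of its 4 genes were higher in beta than in delta, 1 was higher in beta than in alpha and 1 higher in alpha than in delta, with medians of 0.49, 0.35 and 0.18. Sdha, the flavoprotein that oxidises succinate, lay at 99.9, 108 and 104 CPM in alpha, 146, 155 and 141 CPM in beta and 115, 108 and 110 CPM in delta libraries. The beta libraries stood above all the others, which overlapped. Its difference was 0.50 ± 0.09 (adjusted p = 0.000486) over alpha and 0.41 ± 0.09 (adjusted p = 0.00265) over delta, and no single library ended either call. Both were lost on the 3 TPM scales, where beta minus alpha was 0.34 to 0.37, and the adjusted p over all settings ran from 7.42e-06 to 0.563 for beta minus alpha. Sdhb, the iron-sulphur subunit, had 32.5, 33.1 and 32.2 CPM in beta and 13.4, 19.1 and 26.3 CPM in delta libraries, a difference of 0.73 ± 0.20 (adjusted p = 0.0105) with the delta libraries widely spread. Sdhd, a membrane anchor, was 0.58 ± 0.18 (adjusted p = 0.0188) higher in beta and 0.52 ± 0.18 (adjusted p = 0.0403) higher in alpha than in delta. The first was lost without beta replicate 1 or delta replicate 1 (0.46 to 0.55), and the second without alpha replicate 2, any 1 beta library or delta replicates 1 or 2 (0.33 to 0.54). Both Sdhd calls were also lost on the 3 TPM scales, and the Sdhb call on rescaled TPM. Sdhc, the other anchor, had no call and overlapping subsets, at 22.4 ± 2.78, 30.1 ± 6.56 and 28.2 ± 3.24 CPM in alpha, beta and delta (SD, n = 3 each).

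In complex III 1 of the 8 nuclear members was called in any comparison. Cyc1, a complex III subunit that the symbol rule does not take in, is given below with the other genes of the pathway. Uqcrq, a small subunit next to cytochrome b, lay at 18.1, 19.6 and 13.3 CPM in alpha, 22.1, 28.4 and 20.8 CPM in beta and 8.88, 15.3 and 11.7 CPM in delta libraries. All beta libraries were above all delta ones, by 0.99 ± 0.23 (adjusted p = 0.00319), a fold of 1.99, and no single library ended the call. The medians of the 8 genes were -0.18 for beta minus alpha, -0.05 for beta minus delta and -0.02 for alpha minus delta.

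Complex IV had 12 tested nuclear members, of which 1 was higher in beta than in alpha, 2 were higher in beta than in delta and 1 was lower in alpha than in delta. Cox7a2l, a factor that joins complexes III and IV into supercomplexes and of which C57BL/6 mice are known to carry a shortened form, lay at 54.3, 51.0 and 39.1 CPM in alpha, 90.3, 84.3 and 82.2 CPM in beta and 66.2, 58.2 and 63.6 CPM in delta libraries. The 3 subsets did not overlap, with means of 48.1 ± 8.02, 85.6 ± 4.19 and 62.7 ± 4.09 CPM (SD, n = 3 each). Beta exceeded alpha by 0.83 ± 0.13 on the log2 scale (adjusted p = 8.81e-05), a fold of 1.78, and this passed in all 23 other settings tried, with values of 0.70 to 0.92 and an adjusted p of at most 0.0334. Beta exceeded delta by 0.45 ± 0.13 (adjusted p = 0.0118), lost without beta replicate 1 (0.42, adjusted p = 0.0585) and on the 3 TPM scales. Alpha was below delta by -0.38 ± 0.13 (adjusted p = 0.0402), lost without any of 7 libraries (-0.41 to -0.24). Cox5a, a structural subunit, had 21.96, 21.2 and 21.8 CPM in beta and 16.5, 6.35 and 15.5 CPM in delta libraries, 0.75 ± 0.27 (adjusted p = 0.042), lost without any of 7 libraries (0.44 to 0.76). That call was also lost on rescaled TPM, and the alpha minus delta call of Cox7a2l on both log2 TPM scales.

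Several complex IV subunits exist as isoforms for different tissues, and the islet libraries held the widespread ones. Cox4i1 lay at 42.2, 36.9 and 37.5 CPM in alpha, 28.6, 41.5 and 37.6 CPM in beta and 38.0, 45.8 and 42.5 CPM in delta libraries, with all subsets overlapping. Cox6a1, Cox6b1, Cox7a2, Cox7b and Cox8a also had no call in any comparison, with subset means from 14.2 CPM (Cox6b1 in delta) to 37.5 CPM (Cox7b in beta). Ndufa4, now counted with complex IV by its function, had means of 29.4 ± 1.96, 36.4 ± 6.07 and 31.99 ± 2.43 CPM and no call. Cox4i2, Cox7a1, Cox8b and Cox8c were listed at a TPM of 0 in all 9 libraries, and Cox6b2, Cox7b2 and the complex I relative Ndufa4l2 did not pass 1.28, 0.36 and 0.98. Cox6a2, known from heart and skeletal muscle, was listed at 3.53, 1.67 and 1.19 TPM in the beta libraries, 0.23, 0.77 and 0 in the alpha libraries and 0, 0 and 0.14 in the delta libraries, too low to be tested.

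In complex V, the ATP synthase, 3 of 16 tested nuclear members were higher in beta than in delta, all of them with levels above 100 CPM. Atp5a1, the alpha subunit of the catalytic head, lay at 222, 227 and 191 CPM in alpha, 243, 283 and 253 CPM in beta and 187, 207 and 184 CPM in delta libraries. Its difference was 0.43 ± 0.10 (adjusted p = 0.00253) for beta minus delta and 0.28 ± 0.10 (adjusted p = 0.0411) for beta minus alpha. The second was lost without any of 6 libraries (0.21 to 0.32), and both were lost on the 3 TPM scales. Atp5b, the beta subunit that holds the active sites, had 274, 263 and 249 CPM in alpha, 238, 269 and 251 CPM in beta and 202, 222 and 214 CPM in delta libraries. The delta libraries were the lowest 3, by 0.25 ± 0.09 (adjusted p = 0.0405) against beta, lost without beta replicates 2 or 3 or delta replicates 1 or 3 (0.19 to 0.26), and 0.30 ± 0.09 (adjusted p = 0.0182) against alpha, lost without alpha replicate 1 (0.28). Atp5f1, of the peripheral stalk, had 0.31 ± 0.10 (adjusted p = 0.0234) for beta minus delta, lost without beta replicates 1 or 2 or delta replicate 3 (0.27 to 0.33). The Atp5b and Atp5f1 calls were also lost on the 3 TPM scales.

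Atp5e, the small epsilon subunit of the central stalk, was the one ATP synthase gene lower in beta than in alpha. It lay at 29.2, 36.8 and 20.7 CPM in alpha, 15.02, 22.4 and 9.57 CPM in beta and 25.8, 20.1 and 15.8 CPM in delta libraries. Alpha and beta libraries overlapped, and the difference of -0.89 ± 0.29 (adjusted p = 0.0339) was lost without any of 5 libraries (-0.89 to -0.63). Atp5g1, Atp5g2 and Atp5g3, which encode the same membrane ring protein, had no call, and the highest of the 3 in each subset was Atp5g3, at 56.2 ± 3.73, 55.2 ± 1.03 and 45.3 ± 6.59 CPM. Near-identical copies of Atp5g2 held 8.68 to 15.8% of the counts summed with it, so its level is uncertain. Such copies held over 5% of the summed counts at 5 nuclear members, with the largest share at Ndufb4 of complex I (24.3 to 40.6%).

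**Figure D5:**
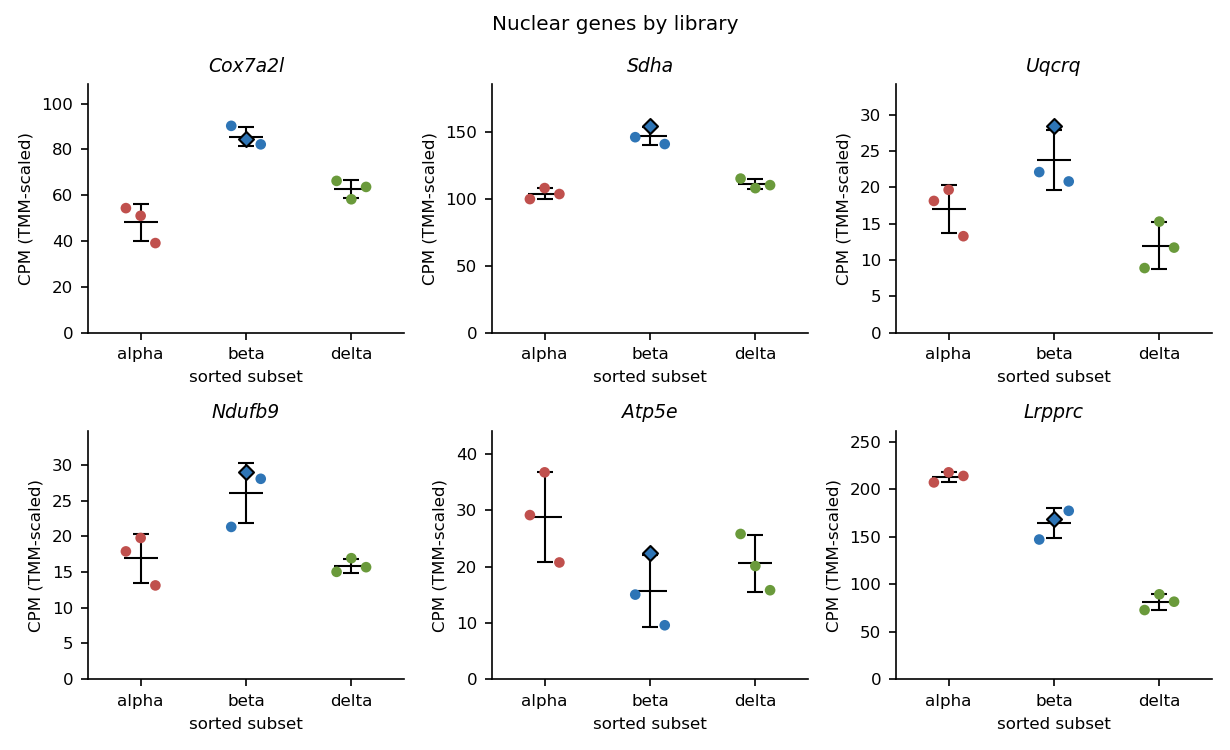
CPM in each library of Cox7a2l, Sdha, Uqcrq, Ndufb9, Atp5e and Lrpprc, with the mean ± SD of each subset. Beta libraries are the highest for the first 4 genes, whereas Lrpprc runs from 72.8 to 89.4 in delta to between 207 and 218 in alpha libraries.

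The promoters of the nuclear members were searched for 2 motifs that are known from nuclear genes of respiration, from 250 bases before to 50 after the RefSeq start on GRCm38.p6. The NRF1 motif, GCGCA then any base then GCGC, searched on both strands, was found in 19 of 74 members with a promoter in the table (25.7%), against 7.17% of 17491 protein-coding genes. The ETS motif, CCGG followed by AAGT, also on both strands, was found in 5 of 74 (6.76%), against 5.69%. The promoters of Sdha and Cox7a2l, the members with the smallest adjusted p for beta minus alpha, are shown for contrast, with NRF1 matches in capitals. Sdha (chr13:74350191-74350490, minus strand) held 3 matches, and Cox7a2l (chr17:83514284-83514583, minus strand) held neither motif.
Sdha promoter: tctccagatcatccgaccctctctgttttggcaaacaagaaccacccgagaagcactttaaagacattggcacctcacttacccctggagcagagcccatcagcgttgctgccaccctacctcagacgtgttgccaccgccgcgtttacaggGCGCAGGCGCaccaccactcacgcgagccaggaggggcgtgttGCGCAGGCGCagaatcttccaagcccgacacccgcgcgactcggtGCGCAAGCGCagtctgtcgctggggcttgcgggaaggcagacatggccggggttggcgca
Cox7a2l promoter: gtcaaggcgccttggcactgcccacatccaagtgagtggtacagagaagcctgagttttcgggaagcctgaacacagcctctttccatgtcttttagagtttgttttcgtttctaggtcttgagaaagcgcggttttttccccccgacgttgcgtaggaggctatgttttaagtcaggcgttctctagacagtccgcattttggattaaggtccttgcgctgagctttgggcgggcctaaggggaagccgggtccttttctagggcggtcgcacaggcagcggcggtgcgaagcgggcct
A match is a description of the letters and not of binding, and the missing match says only that these letters are not in that window.

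Other genes of the pathway were taken from lists of known roles outside the families above. Their counts are to be read beside the 26.6, 30.6 and 24.3% of all tested genes called for beta minus alpha, beta minus delta and alpha minus delta, and beside medians over all genes of -0.02, -0.02 and -0.01. Gpd2, the glycerol-3-phosphate dehydrogenase that feeds cytosolic electrons into the chain, lay at 153, 151 and 143 CPM in alpha, 198, 210 and 261 CPM in beta and 32.4, 29.3 and 40.9 CPM in delta libraries. Its difference was 2.70 ± 0.14 (adjusted p = 8.44e-11) for beta minus delta and 2.12 ± 0.13 (adjusted p = 2.6e-09) for alpha minus delta. No single library ended these calls. Of the 17 tested electron carriers and ubiquinone genes, 2, 4 and 2 were higher for beta minus alpha, beta minus delta and alpha minus delta, and 0, 0 and 2 lower, with medians of 0.05, 0.11 and -0.06. Coq8a, a kinase-like protein of ubiquinone synthesis, was higher in beta than in alpha by 1.49 ± 0.25 (adjusted p = 0.000192). Cyc1, cytochrome c1 of complex III, was higher in beta than in delta by 0.92 ± 0.29 (adjusted p = 0.02). The Cyc1 call was lost without beta replicate 2, delta replicate 1 or delta replicate 3 (0.71 to 0.86), and both calls were lost on the 3 TPM scales. The 2 genes lower in alpha than in delta were Coq8a (-0.78 ± 0.25, adjusted p = 0.0327) and Coq2 (-0.41 ± 0.14, adjusted p = 0.0476). These were lost without any 1 of 7 and of 8 libraries. Of 29 tested genes of mitochondrial transcription and RNA processing, 0, 1 and 2 were higher and 1, 0 and 0 lower, with medians of -0.03, 0.03 and 0.19. Lrpprc, which binds and stabilises mitochondrial messages, was called in all 3 comparisons. It lay at 207, 218 and 214 CPM in alpha, 147, 169 and 177 CPM in beta and 72.8, 89.4 and 81.6 CPM in delta libraries, with no overlap. Its difference was 1.39 ± 0.10 (adjusted p = 2.17e-08) for alpha minus delta and 1.02 ± 0.10 (adjusted p = 7.07e-07) for beta minus delta. Beta was below alpha by -0.37 ± 0.10 (adjusted p = 0.0104), lost without beta replicate 1 (-0.30, adjusted p = 0.0781) and on the 3 TPM scales. The order of Lrpprc was alpha above beta above delta, beside beta above alpha above delta for the mitochondrial share. The mitochondrial ribosomal RNAs mt-Rnr1 and mt-Rnr2, which rRNA depletion touches, had no call.

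Of 12 tested regulators of mitochondrial biogenesis, 1 was higher and 2 lower in beta than in alpha, 3 were higher in beta than in delta and 5 in alpha than in delta, with medians of -0.20, 0.12 and 0.36. Ppargc1a, the coactivator PGC-1alpha, had 17.7, 21.9 and 16.8 CPM in alpha, 5.26, 6.17 and 9.24 CPM in beta and 9.15, 8.17 and 9.77 CPM in delta libraries. It was lower in beta than in alpha at -1.45 ± 0.25 (adjusted p = 0.000296) and higher in alpha than in delta at 1.05 ± 0.25 (adjusted p = 0.0042), both lost on the 3 TPM scales, with values over all settings of -1.72 to -0.57 and 0.17 to 1.14. Esrrg, the oestrogen-related receptor gamma, was higher in beta than in alpha (0.54 ± 0.15, adjusted p = 0.0143) and than in delta (0.56 ± 0.15, adjusted p = 0.0103), the first lost without alpha replicate 1, alpha replicate 2 or beta replicate 1 (0.48 to 0.53) and the second without beta replicate 1 (0.51). Both were also lost on the 3 TPM scales, with values over all settings of 0.45 to 0.60 and 0.07 to 0.69. The coactivator Pprc1 (0.65 ± 0.16, adjusted p = 0.00573) and Creb1 (0.43 ± 0.10, adjusted p = 0.00283) were higher in alpha than in delta. The Pprc1 call was lost on the 3 TPM scales and the Creb1 call on rescaled TPM. Gabpb1 was the other regulator lower in beta than in alpha (-0.63 ± 0.19, adjusted p = 0.0221). Its call was lost without alpha replicate 2, beta replicate 1 or beta replicate 2, and on the 3 TPM scales. Of 20 tested import and carrier genes 3, 6 and 3 were higher and 2, 0 and 0 lower, with medians of -0.04, 0.20 and 0.10. Among them the ADP/ATP carrier Slc25a5 was lower in beta than in alpha (-0.43, adjusted p = 0.00269) and higher in alpha than in delta (0.78, adjusted p = 1.01e-05). The chaperone Hspa9 was higher in beta than in alpha (0.70 ± 0.13, adjusted p = 0.000683) and than in delta (0.84 ± 0.13, adjusted p = 0.000114). The ADP/ATP carrier Slc25a4 (0.45 and 0.54, adjusted p = 0.00474 and 0.00162) and the chaperone Hspd1 (0.48 and 0.52, adjusted p = 0.0024 and 0.00179) were higher in both beta and alpha than in delta. The phosphate carrier Slc25a3 was higher in beta than in delta (0.44 ± 0.09, adjusted p = 0.00135). On the 3 TPM scales these calls of Slc25a4, Hspd1 and Slc25a3 were lost, as was that of Hspa9 over alpha. The call of Hspa9 over delta was lost on rescaled TPM, and the beta minus alpha call of Slc25a5 on both log2 TPM scales. Timm44 was also lower in beta than in alpha (-0.53 ± 0.18, adjusted p = 0.0405), lost without any 1 of 6 libraries. Of 38 tested assembly factors with other names 1, 3 and 2 were higher and 1, 1 and 0 lower, with medians of 0.12, 0.15 and 0.01. Ttc19, of complex III assembly, was higher in beta than in delta (0.67 ± 0.14, adjusted p = 0.000963), as was Cox15, of haem A synthesis (0.54 ± 0.16, adjusted p = 0.0138). Both were lost on the 3 TPM scales. Lyrm7, another complex III assembly factor, was lower in beta than in alpha (-1.03 ± 0.31, adjusted p = 0.0192). That call was lost without alpha replicate 2, beta replicate 1 or beta replicate 2 (-0.98 to -0.81), and on the 3 TPM scales. Timmdc1 was lower in beta than in delta (-0.65 ± 0.22, adjusted p = 0.0288). Its call was lost without beta replicate 1, beta replicate 3 or delta replicate 1, and on both log2 TPM scales.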

How the data were processed

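RNA-seq of 9 libraries in 3 sorted subsets was analysed. The deposited tables hold expected counts per gene that the authors made with RSEM (version not given in the sources used here) after STAR 2.5.2b alignment to GRCm38.p6, per the submitters' processing notes, which also name R 3.5.1 and DESeq2 1.22.1. The deposited TPM values, also from the authors' RSEM tables, are scaled to a fixed sum and were used for levels per length. FPKM and the authors' normalised table were not used. Expected counts were rounded to whole numbers, filtered by subset and scaled by TMM, and all 15896 remaining genes were fitted with edgeR 4.0.16 (R 4.3.3), robust quasi-likelihood test, 6 residual degrees of freedom, a common coefficient of variation of 0.212, Benjamini-Hochberg adjustment over all genes and a threshold of 0.05. CPM values are TMM-scaled, and differences are log2. The script was tested on simulated data. Totals of 5663141 to 9529920 counts per library set the precision. Alternatives used DESeq2 1.42.0, limma 3.58.1 on log2(TPM + 1) and log2(TPM + 0.1), other factors and filters, and each library left out. Those that add nuclear copies (at least 97% identity over 50% of the copy) were chosen after seeing the data. Members and lists were chosen with earlier results of these data known. Values were named for all mitochondrial genes, the isoforms and Sdh genes, up to 3 called genes per complex, direction and comparison, and the extremes of level. From the lists, values are given for the genes called lower and for a part of those called higher.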

Additional observations from a re-analysis of the deposited data

How the results depend on the processing

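Counts of called genes depended on single libraries and on the scaling. Counts are for beta minus alpha (BA), beta minus delta (BD) and alpha minus delta (AD). Nuclear BA calls went from 6 to 2 on log2(TPM + 1) and on log2(TPM + 0.1), 12 with only the 2 subsets compared, 3 without beta 2 and delta 3, and 3 with copies added and beta 2 left out; leaving out 1 library gave 2 to 7. Mitochondrial BA calls went from 7 to 4 with DESeq2 factors in edgeR, 1 with upper-quartile factors, 2 with factors from nuclear protein-coding genes and 0 on the 3 TPM scales, without beta 2 and delta 3, and with copies added and beta 2 left out; leaving out 1 library gave 0 to 7. Nuclear BD calls went from 15 to 9 (upper quartile), 5 (both log2 TPM), 5 (without beta 2 and delta 3) and 7 (copies, no beta 2), 7 to 13 leaving out 1 library. Nuclear AD calls went from 6 to 2 (both log2 TPM), 1 (only 2 subsets), 3 and 3, 2 to 7 leaving out 1 library, and mitochondrial AD calls from 11 to 5 on rescaled TPM. Medians on log2(TPM + 1), log2(TPM + 0.1) and rescaled TPM were 0.26, 0.26 and -0.26 (nuclear BD), 1.11, 1.11 and 0.59 (mitochondrial BD), 0.30, 0.31 and -0.16 (nuclear AD) and 0.89, 0.89 and 0.40 (mitochondrial AD). Over all genes, medians on log2(TPM + 1) and log2(TPM + 0.1) were 0.10 and 0.15 (BD) and 0.15 and 0.22 (AD). The nuclear BD median was also -0.13 without beta 2 and delta 3, -0.084 with copies and no beta 2, and -0.082 to 0.14 leaving out 1 library. The mitochondrial share of all counts, of members, of protein-coding TPM and with copies was 4.88, 93.97, 16.03 and 6.65% in alpha, 5.17, 94.9, 17.8 and 7.74% in beta, and 3.56, 91.6, 12.9 and 5.07% in delta. On rescaled TPM, where the median of all genes was -0.34 (BD) and -0.24 (AD), called positive values fell below 0 for Atp5b (-0.38 BD, -0.14 AD), Atp5f1 (-0.048), Coa5 (-0.019), Coq8a (-0.26), Ndufs1 (-0.12), Sdha (-0.16, all BD) and Fastkd2 (-0.051, AD). With the replicate number as a block, nuclear calls were 7, 15 and 6 and mitochondrial calls 7, 12 and 11 (BA, BD, AD), and mt-Atp8 was called for BD. Nothing in the labels says that a number marks a shared animal or day, and 3 of the 9 same-number correlations exceeded 0.1, so the numbers were not used to pair the samples. All 9 were positive (0.00566 to 0.144, other numbers -0.145 to 0.0445), and 15 of 18 were highest at their own number, a hint from the data, not the design.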
